A study of Saccharomyces cerevisiae with 3 samples.

Results

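The genes described here build 2 connected routes of the yeast endoplasmic reticulum (ER): the import of proteins into the ER, and the making and attachment of glycosylphosphatidylinositol (GPI) anchors. They were 43 genes chosen by name, of the 5325 genes named on the array. They comprise 8 genes of the signal recognition particle (SRP) and its receptor, 9 of the translocon, 4 of signal peptidase, 3 ER folding enzymes, 14 genes of GPI synthesis and 5 of the GPI transamidase. All 43 had probes on the array, 2 each for 40 genes and 12 each for SEC66, SPC1 and SPC2.

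A library of tagged Saccharomyces cerevisiae strains was grown as a pool, and its genomic DNA was hybridised to 3 two-colour tag arrays, 1 per drug. Each group consisted of library cells that had sporulated and been selected on tunicamycin, rapamycin or cycloheximide (Cy5 channel), set against untreated cells of the same library (Cy3 channel), and the labels name no strain or genotype beyond the library. The library is one of essential genes, in which each strain carries variants of 1 gene and short DNA tags that identify it. Whether it held a strain of each of the 43 genes is unknown here. The descriptions carry 20 ng for rapamycin and 30 ng for cycloheximide, with an unclear unit beside the 3 for tunicamycin, and call the rapamycin sample "single" where the other arrays are called a pool. With 1 array per drug, nothing here was tested between drugs, and drug, array and kind of selection cannot be told apart.

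Proteins enter the ER either while they are made, when SRP binds the emerging signal sequence and its membrane receptor hands the ribosome to the Sec61 channel, or afterwards, when the Sec63 complex and the Hsp70 chaperone Kar2 draw the chain through the same channel. Signal peptidase then removes the signal sequence, and Pdi1 and Ero1 introduce disulfide bonds. GPI anchors are built on phosphatidylinositol by the stepwise addition of glucosamine, mannoses and phosphoethanolamine, and the GPI transamidase exchanges the carboxyl-terminal signal of a protein for the finished anchor. Tunicamycin blocks Alg7, the first enzyme of N-linked glycan synthesis in the ER membrane. Rapamycin inhibits the TOR kinase, and cycloheximide stalls translation elongation.

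Every value is the log2 of drug-selected over untreated signal minus the median of all measured spots of that array. Probes of a gene were averaged into a gene value. The direction of the ratio was taken from the dyes in the labels. The file itself does not state it. A gene was called depleted when at least 2 probes were measured, its value lay at least 3 spread units below 0 and each probe at least 2 units below. The unit, the scaled median absolute deviation of all gene values, was 0.914 for tunicamycin, 1.06 for rapamycin and 0.924 for cycloheximide. The mirror rule defined enriched genes. Each SD is taken between a gene's probes within an array, with n probes.

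Most of the 43 genes lay far below the array median under each drug, and none was called enriched. Under tunicamycin 23 of the 41 members that had 2 or more measured probes (56.1%) were depleted, against 13.6% of all genes measured in the same way. Under rapamycin 9 of 22 (40.9%) were depleted, against 6.45% of all genes. Under cycloheximide it was 21 of 41 (51.2%), against 15.2%. This last count was 10 at 4 units (3 per probe), and 0 without spots that are ratios of small whole numbers, a filter that also widened the spread unit. The rule needs every measured probe to be low, so genes with many probes are harder to call. Among genes with 1 probe pair, both measured, 23 of 38 members were depleted under tunicamycin, against 566 of 3284 genes. Under rapamycin it was 9 of 19 against 254 of 3130, and under cycloheximide 21 of 38 against 621 of 3239. The background for enrichment was 0.12%, 0.0747% and 0.0485% of genes for tunicamycin, rapamycin and cycloheximide, and nothing is read from the 0 enriched members at such rates. The median member value was -4.145 over 43 genes under tunicamycin, -4.80 over 39 under rapamycin and -3.02 over 43 under cycloheximide. All genes had medians of -0.09, -0.21 and -0.04 on the same arrays.

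The library is named as one of essential genes. By textbook knowledge 36 of them are essential or nearly so, and the loss of the other 7 (SBH1, SBH2, SSH1, SEC66, SEC72, SPC1 and SPC2) is tolerated. Among the 36, 23 of 34 were depleted under tunicamycin, 9 of 15 under rapamycin and 21 of 34 under cycloheximide, with medians of -4.49, -6.62 and -3.40. Among the 7, none was depleted on any array, and the medians were 0.06, -0.14 and 0.24. All genes had shares of 13.6%, 6.45% and 15.2%, and nothing is read from 0 of 7. SEC66, SPC1 and SPC2 have 12 probes each, and a call needs every measured one to be low. Spots whose deposited value equals, within 0.0005, the log2 of one whole number up to 10 divided by another made up 64.3%, 41.0% and 66.5% of all measured spots under tunicamycin, rapamycin and cycloheximide. Such a ratio cannot take the lowest values of depleted spots.

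**Figure D1:**
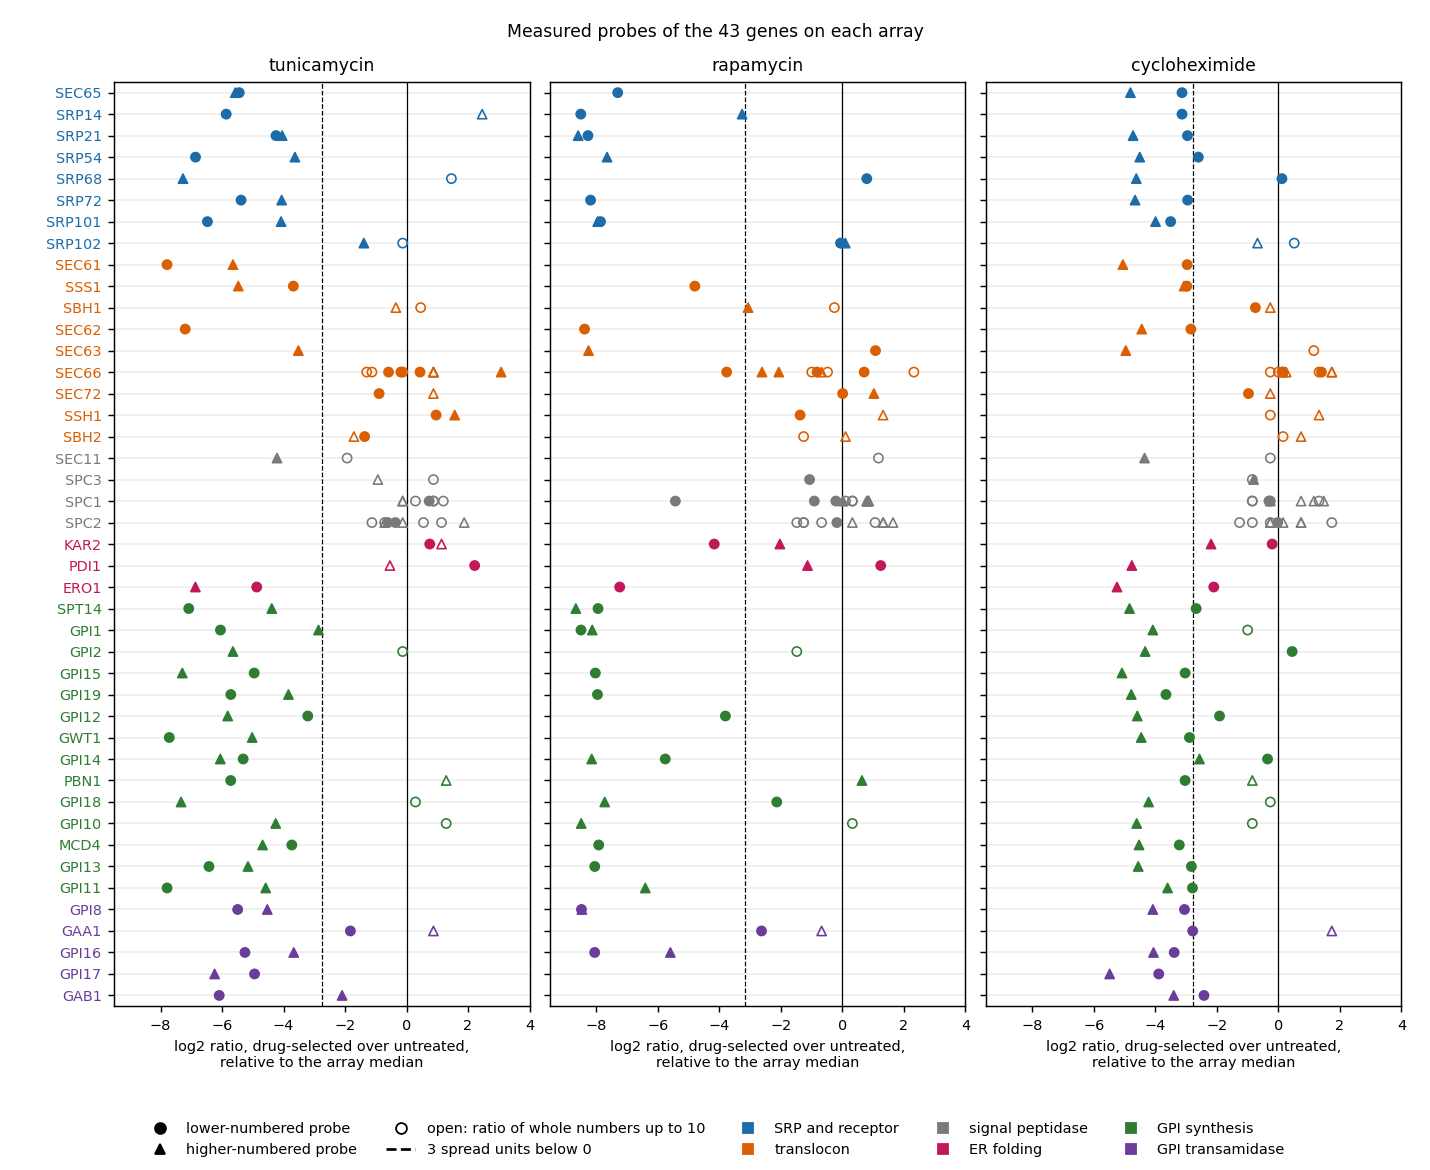
Each measured probe of the 43 genes is plotted by gene (rows, coloured by role) against its median-centred log2 ratio of drug-selected over untreated signal, for tunicamycin, rapamycin and cycloheximide. Circles are lower-numbered and triangles higher-numbered probes, open symbols are ratios of whole numbers up to 10, and the dashed line lies 3 spread units below 0; most filled symbols of SRP and GPI genes lie left of it, while most symbols of SBH1, SEC66, SEC72, SSH1, SBH2, SPC1, SPC2 and SPC3 lie around 0.

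The SRP and receptor group had 5 of 8 members depleted under tunicamycin (median -4.43), 3 of 4 under rapamycin (-7.48) and 5 of 7 under cycloheximide (-3.65). Shares over all genes were 13.6%, 6.45% and 15.2% on these arrays. SRP21 (YKL122C), an SRP protein of fungi, had probes at -4.25 and -4.04 under tunicamycin, -8.28 and -8.59 under rapamycin, and -2.96 and -4.72 under cycloheximide. The alpha subunit gene of the receptor (YDR292C) had -6.48 and -4.08, then -7.87 and -7.96, and then -3.50 and -3.99 under the same drugs. These were the members of the group called depleted on all 3 arrays. SEC65 (YML105C), the SRP19 homologue that helps to assemble the particle, was depleted under tunicamycin at -5.50 ± 0.09 (SD, n = 2) and under cycloheximide at -3.97 ± 1.19 (n = 2), and its single measured probe under rapamycin stood at -7.31. SRP54 (YPR088C), which binds the signal sequence, was depleted under tunicamycin at -5.25 ± 2.29 and under cycloheximide at -3.56 ± 1.35 (n = 2 each), and had -7.66 in 1 probe under rapamycin. SRP72 (YPL210C), which forms part of the core of the particle, was depleted under the same pair of drugs at -4.72 ± 0.93 and -3.81 ± 1.21 (n = 2 each), with -8.19 in 1 rapamycin probe.

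The gene of the membrane-anchored beta subunit of the receptor (YKL154W) stood near 0 while that of its alpha partner was depleted. Its probes had -0.13 and -1.39 under tunicamycin, -0.06 and 0.09 under rapamycin, and 0.52 and -0.68 under cycloheximide. Of these 6 spots, 1 of 2 under tunicamycin, 0 of 2 under rapamycin and 2 of 2 under cycloheximide were ratios of whole numbers up to 10. SRP68 (YPL243W), the binding partner of SRP72, gave opposite readings from its 2 probes: the lower-numbered probe stood at 1.46, 0.79 and 0.12 under tunicamycin, rapamycin and cycloheximide, and the higher-numbered one at -7.27 under tunicamycin and -4.62 under cycloheximide, with an empty spot under rapamycin. SRP14 (YDL092W) was depleted under rapamycin with probes at -8.51 and -3.26. Under tunicamycin its probes stood at -5.87 and 2.46, the second of them a ratio of whole numbers up to 10, and under cycloheximide the only measured probe had -3.13.

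In the translocon SEC61 and SSS1 were depleted under tunicamycin and cycloheximide and SEC62 under cycloheximide, and none of the other genes was called. SEC61 (YLR378C), the pore itself, had -7.79 and -5.64 under tunicamycin and -2.97 and -5.06 under cycloheximide, with both spots empty under rapamycin. SSS1 (YDR086C), the small gamma subunit that clamps the pore, had -3.68 and -5.47 under tunicamycin and -2.98 and -3.07 under cycloheximide, and -4.80 in 1 probe under rapamycin. SBH1 (YER087C-B), the beta subunit of the same channel, had 0.06 ± 0.57, -1.67 ± 1.98 and -0.51 ± 0.34 (n = 2 each) under tunicamycin, rapamycin and cycloheximide.

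SEC62 (YPL094C), the membrane protein that receives chains after translation, was depleted under cycloheximide at -3.64 ± 1.13 (n = 2), and its single measured probe had -7.20 under tunicamycin and -8.39 under rapamycin. SEC63 (YOR254C), whose J domain activates Kar2, had its higher-numbered probe at -3.52, -8.26 and -4.96 under tunicamycin, rapamycin and cycloheximide. Its lower-numbered probe was empty under tunicamycin and stood at 1.07 under rapamycin and 1.15 under cycloheximide, so that SEC63 was not called. The non-essential subunits of this complex were not called. SEC66 (YBR171W) had 0.28 ± 1.27 (n = 10), -0.93 ± 1.79 (n = 9) and 0.66 ± 0.79 (n = 10), and SEC72 (YLR292C) -0.01 ± 1.25, 0.51 ± 0.72 and -0.62 ± 0.50 (n = 2 each). The parallel channel of SSH1 (YBR283C), a Sec61 homologue, and SBH2 (YER019C-A), an Sbh1 homologue, had no call. SSH1 had 1.26 ± 0.43, -0.03 ± 1.91 and 0.53 ± 1.12, and SBH2 -1.54 ± 0.25, -0.58 ± 0.96 and 0.44 ± 0.41 (n = 2 each).

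Over all 9 translocon genes, 2 of 7 were depleted under tunicamycin (median -1.54), 0 of 6 under rapamycin (-1.30) and 3 of 9 under cycloheximide (-0.62). The 4 essential ones alone had medians of -5.65, -4.80 and -3.33, the rapamycin value over 3 genes. Of the 8 spots of these 4 genes 4 were empty under rapamycin. Shares over all genes were 13.6%, 6.45% and 15.2% under tunicamycin, rapamycin and cycloheximide, and nothing is read from 0 of 6.

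Signal peptidase, 2 of whose 4 genes are non-essential, had medians of -0.02, -0.03 and -0.39 under tunicamycin, rapamycin and cycloheximide. Its catalytic subunit SEC11 (YIR022W) was depleted under tunicamycin, with probes at -1.93 and -4.21. Under cycloheximide they stood at -0.26 and -4.35, and under rapamycin the lower-numbered probe had 1.17 while the other spot was empty. On each array the lower-numbered SEC11 spot was a ratio of whole numbers up to 10. Under tunicamycin it lay just past the limit for a probe, -1.83. SPC3 (YLR066W), the other essential subunit, stayed near 0 with 0.87 and -0.93 under tunicamycin, -1.07 in 1 probe under rapamycin, and -0.85 and -0.81 under cycloheximide. All of its tunicamycin spots and 1 of 2 under cycloheximide were ratios of whole numbers up to 10. The non-essential SPC1 (YJR010C-A) had 0.53 ± 0.52 (n = 7), -0.14 ± 1.75 (n = 12) and 0.24 ± 0.93 (n = 9), and SPC2 (YML055W) -0.01 ± 0.99 (n = 9), 0.08 ± 1.21 (n = 10) and 0.04 ± 0.86 (n = 10).

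**Figure D2:**
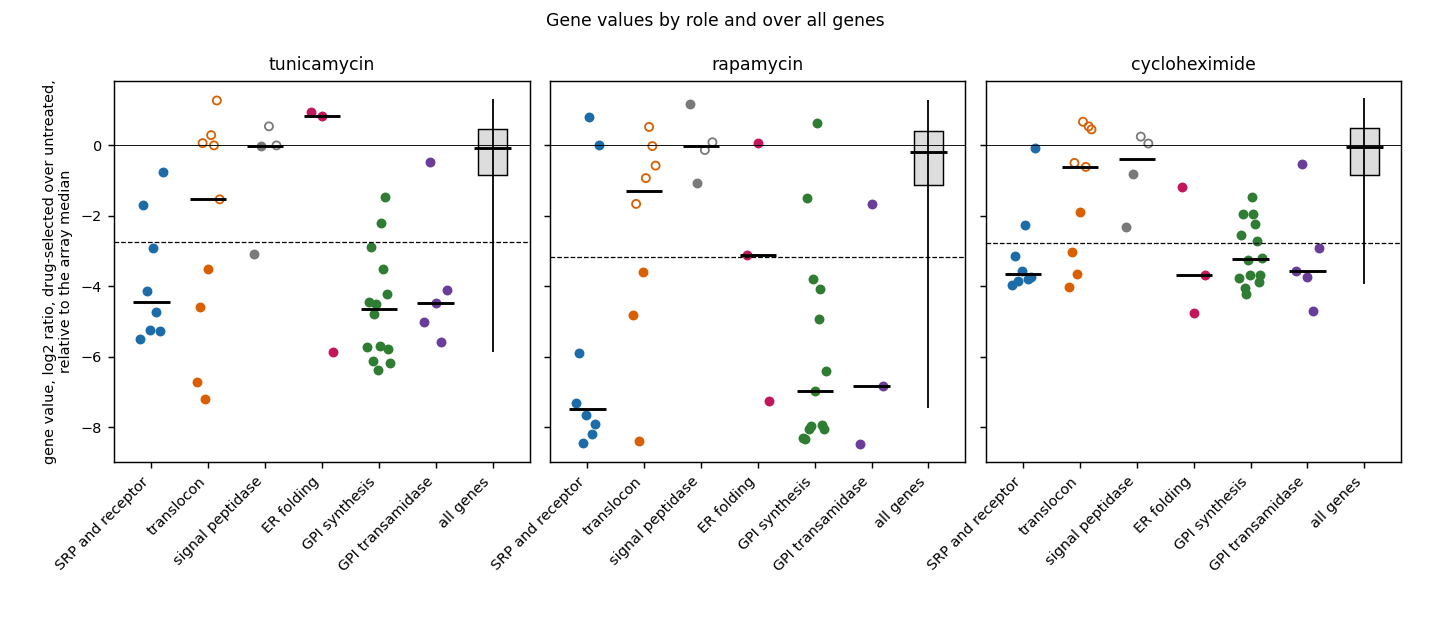
Gene values (median-centred log2 ratio of drug-selected over untreated signal) are plotted by role for tunicamycin, rapamycin and cycloheximide, with filled points for essential and open points for non-essential genes, a bar at each group's median, and at the right a box of all genes (quartiles and median, whiskers from the 5th to the 95th percentile). The dashed line lies 3 spread units below 0; the SRP and both GPI groups have medians below it on every array.

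The 3 ER folding genes did not share a pattern. ERO1 (YML130C), the oxidase that passes disulfide bonds to Pdi1, was low in the way of most SRP genes, with -4.87 and -6.87 under tunicamycin, -7.24 in 1 probe under rapamycin, and -2.10 and -5.25 under cycloheximide. It was depleted under tunicamycin and cycloheximide. KAR2 (YJL034W), the ER Hsp70 known as BiP, was not depleted on any array. Its probes had 0.75 and 1.14 under tunicamycin, -4.17 and -2.04 under rapamycin, and -0.20 and -2.19 under cycloheximide. Both probes were thus above the array median under tunicamycin and below it under the other drugs. The gene value of 0.95 ± 0.27 (n = 2) under tunicamycin exceeded those of 90.4% of all measured genes, while -3.10 ± 1.51 under rapamycin and -1.20 ± 1.41 under cycloheximide exceeded 13.6% and 21.2%. Under rapamycin KAR2 lay just inside the limits, which were -3.17 for the gene and -2.11 for a probe. Of its tunicamycin spots 1 was a ratio of whole numbers up to 10. The median of the 3 folding genes under tunicamycin, 0.84, was -0.037 without centring.

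PDI1 (YCL043C), the protein disulfide isomerase, had 2.21 and -0.54 under tunicamycin and 1.24 and -1.14 under rapamycin. Under cycloheximide the lower-numbered probe was empty and the higher-numbered one stood at -4.77. Compared on the probe measured on all arrays, PDI1 was higher by 4.23 under tunicamycin than under cycloheximide, which ranked 9 from the top among 5008 genes compared in this way, and higher by 3.63 under rapamycin than under cycloheximide, which ranked 12 among 4873. KAR2 was higher by 4.05 under tunicamycin than under rapamycin, ranking 87 from the top among 5021 gene values, and by 2.14 under tunicamycin than under cycloheximide, ranking 124 among 5107. With 1 array a drug these ranks describe the arrays and were not tested. ALG7, the target of tunicamycin, had 7.19 ± 0.19 (n = 2) on the tunicamycin array, so that KAR2 and PDI1 were far from the level of a selected target.

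**Figure D3:**
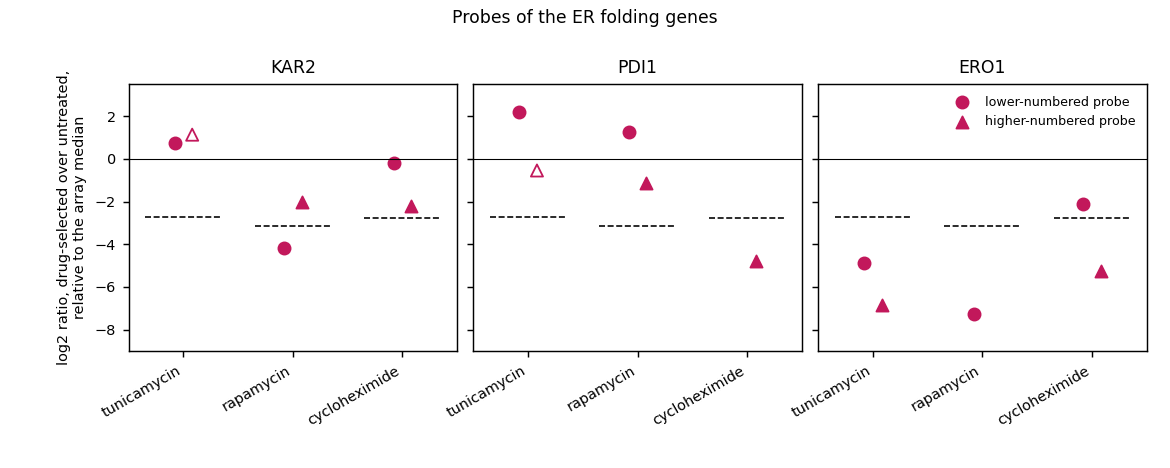
Probe values (median-centred log2 ratio of drug-selected over untreated signal) of KAR2, PDI1 and ERO1 are plotted for tunicamycin, rapamycin and cycloheximide, with circles for the lower- and triangles for the higher-numbered probe, open where the ratio is one of whole numbers up to 10. Dashes mark 3 spread units below 0; KAR2 lies above 0 under tunicamycin only, PDI1 lies below the dash under cycloheximide only, and every ERO1 value but 1 lies below its dash.

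GPI synthesis begins with the transfer of N-acetylglucosamine to phosphatidylinositol by a complex of several subunits, 5 of which were members. SPT14 (YPL175W), its catalytic subunit, was depleted on all 3 arrays, with probes at -7.08 and -4.38 under tunicamycin, -7.95 and -8.67 under rapamycin, and -2.67 and -4.84 under cycloheximide. GPI1 (YGR216C) was depleted under tunicamycin at -6.05 and -2.86 and under rapamycin at -8.50 and -8.14. Under cycloheximide its probes stood at -1 and -4.08, and it was not called. Its difference of -5.78 between rapamycin and cycloheximide ranked 15 from the bottom among 4980 gene values, and 44 among 4873 genes compared on shared probes. Both its rapamycin spots had deposited values below -9, close to the lowest of that array. GPI15 (YNL038W) and GPI19 (YDR437W) were depleted under tunicamycin, at -6.12 ± 1.65 and -4.78 ± 1.33, and under cycloheximide, at -4.06 ± 1.45 and -4.22 ± 0.80 (n = 2 each). Their single rapamycin probes had -8.04 and -7.97. GPI2 (YPL076W) was not called. Its lower-numbered probe stood at -0.13, -1.48 and 0.45 under tunicamycin, rapamycin and cycloheximide. The higher-numbered one had -5.65 under tunicamycin and -4.33 under cycloheximide. It was empty under rapamycin, where GPI2 with 1 measured probe could not be called.

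The next enzymes remove the acetyl group and acylate the inositol. GPI12 (YMR281W), the deacetylase, was depleted under tunicamycin at -4.51 ± 1.84 and under cycloheximide at -3.25 ± 1.89 (n = 2 each), and had -3.81 in 1 rapamycin probe. GWT1 (YJL091C), the inositol acyltransferase, was depleted at -7.72 and -5.02 under tunicamycin and -2.89 and -4.46 under cycloheximide, and both its spots were empty under rapamycin.

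The mannosyltransferase genes followed. GPI14 (YJR013W), which adds the first mannose, was depleted under tunicamycin with -5.31 and -6.06 and under rapamycin with -5.76 and -8.15. Under cycloheximide it had -0.35 and -2.57 and was not called. Its difference of -4.23 between tunicamycin and cycloheximide ranked 31 from the bottom among 5107 gene values, and 29 among 5008 genes compared on shared probes. That of -5.50 between rapamycin and cycloheximide ranked 28 among 4980 gene values, and 66 among 4873 on shared probes. PBN1 (YCL052C), its partner subunit, was not called on any array: the lower-numbered probe had -5.72 under tunicamycin and -3.03 under cycloheximide and was empty under rapamycin, and the other had 1.29, 0.63 and -0.85 under tunicamycin, rapamycin and cycloheximide. GPI18 (YBR004C), which adds the second mannose, was depleted under rapamycin with -2.14 and -7.73, and had 0.29 and -7.33 under tunicamycin and -0.26 and -4.22 under cycloheximide. GPI10 (YGL142C), which adds the third, was not called, with 1.29 and -4.25, then 0.32 and -8.50, then -0.85 and -4.61 under tunicamycin, rapamycin and cycloheximide.

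The members that act in the phosphoethanolamine steps, MCD4, GPI13 and GPI11, were depleted wherever both probes were measured. MCD4 (YKL165C), which modifies the first mannose, had -3.73 and -4.68 under tunicamycin and -3.22 and -4.53 under cycloheximide, with -7.93 in 1 rapamycin probe. GPI13 (YLL031C), which adds the phosphoethanolamine that later joins the protein, had -6.43 and -5.16, and -2.83 and -4.56, with -8.05 in 1 rapamycin probe. GPI11 (YDR302W), which takes part in the same late steps, had -7.79 and -4.58, and -2.79 and -3.60, with -6.41 in 1 rapamycin probe. Over the 14 synthesis genes, 10 of 14 were depleted under tunicamycin (median -4.65), 4 of 5 under rapamycin (-6.96) and 8 of 14 under cycloheximide (-3.22). The all-gene shares were 13.6%, 6.45% and 15.2% on these arrays.

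In the GPI transamidase 4 of 5 subunits were depleted under tunicamycin (median -4.46), 2 of 3 under rapamycin (-6.83) and 4 of 5 under cycloheximide (-3.57). The all-gene shares were 13.6%, 6.45% and 15.2% on these arrays. GPI8 (YDR331W), the protease-like catalytic subunit, had -5.49 and -4.53 under tunicamycin, -8.49 and -8.47 under rapamycin, and -3.05 and -4.08 under cycloheximide. GPI16 (YHR188C), whose human counterpart is disulfide-linked to the catalytic subunit, had -5.25 and -3.67, -8.06 and -5.60, and -3.39 and -4.06. Both were depleted on all 3 arrays. GPI17 (YDR434W) was depleted under tunicamycin at -5.59 ± 0.92 and under cycloheximide at -4.69 ± 1.13, and GAB1 (YLR459W) at -4.09 ± 2.83 and -2.91 ± 0.70 (n = 2 each). The rapamycin spots of GPI17 and GAB1 were empty. GAA1 (YLR088W), which is thought to present the lipid substrate, was the exception, with -1.83 and 0.87 under tunicamycin, -2.63 and -0.68 under rapamycin, and -2.79 and 1.74 under cycloheximide. On each array 1 of its 2 spots, the higher-numbered one, was a ratio of whole numbers up to 10.

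Across the 43 genes, 5 were depleted on all 3 arrays (SRP21, the receptor alpha subunit gene YDR292C, SPT14, GPI8 and GPI16), 17 on 2 arrays, 4 on 1 array and 17 on none. These counts are bounded by empty spots, since a gene with fewer than 2 measured probes on an array could not be called there. Under rapamycin only 22 of the 43 members could be called. The same counts were not made over all genes. Of the 72 spots of the 36 essential genes, 2 were empty under tunicamycin, 25 (34.7%) under rapamycin and 2 under cycloheximide, against 13.1%, 12.5% and 13.98% of all spots. Under rapamycin 17 essential members had only 1 measured probe and 4 (SEC61, GWT1, GPI17 and GAB1) had none. Without the demand for 2 probes, the gene value lay at least 3 units below 0 for 28 of 43 members under tunicamycin, 23 of 39 under rapamycin and 23 of 43 under cycloheximide, against 14.4%, 13.5% and 13.6% of all genes with a measured probe.

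The 2 probes of a gene often gave different values, and which probe was lower depended on the array. Every one of the 4439 genes with 2 probes had them 10971 numbers apart, and they are called lower- and higher-numbered here. Under cycloheximide the higher-numbered probe was the lower in value in 21 of 21 depleted members, by a median of -1.60, and in 581 of 621 depleted genes with 2 probes, by -1.50. Under tunicamycin it was so in 9 of 23 depleted members, with a median difference of 1.27, against 208 of 566 genes and 0.60. Under rapamycin it was 5 of 9 members, with -0.09, against 117 of 254 genes and 0.11. Under cycloheximide the offset was therefore shared with other depleted genes of the array. Under tunicamycin the members' median difference was the larger, and under rapamycin both medians lay near 0 with opposite signs.

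Probe pairs split across a limit were counted among the members only, with no share over all genes to set beside the count. Among the 40 members with 1 probe pair, 13 had both probes measured and on either side of 2 units below 0 on at least 1 array, 8 of them on 2 or more. In SRP68, SEC63, GPI2, GPI10 and GPI18 the lower-numbered probe lay above this limit, or less than 0.1 below it, on each array where it was measured, while the higher-numbered one was at or below -3.52 wherever it was measured. PBN1 and GAA1 were the other way round, with the higher-numbered probe nearer 0. On every array the nearer spots of GPI10 and GAA1 were ratios of whole numbers up to 10. Those of SRP68, SEC63, GPI2, GPI18 and PBN1 were so on some arrays only.

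**Figure D4:**
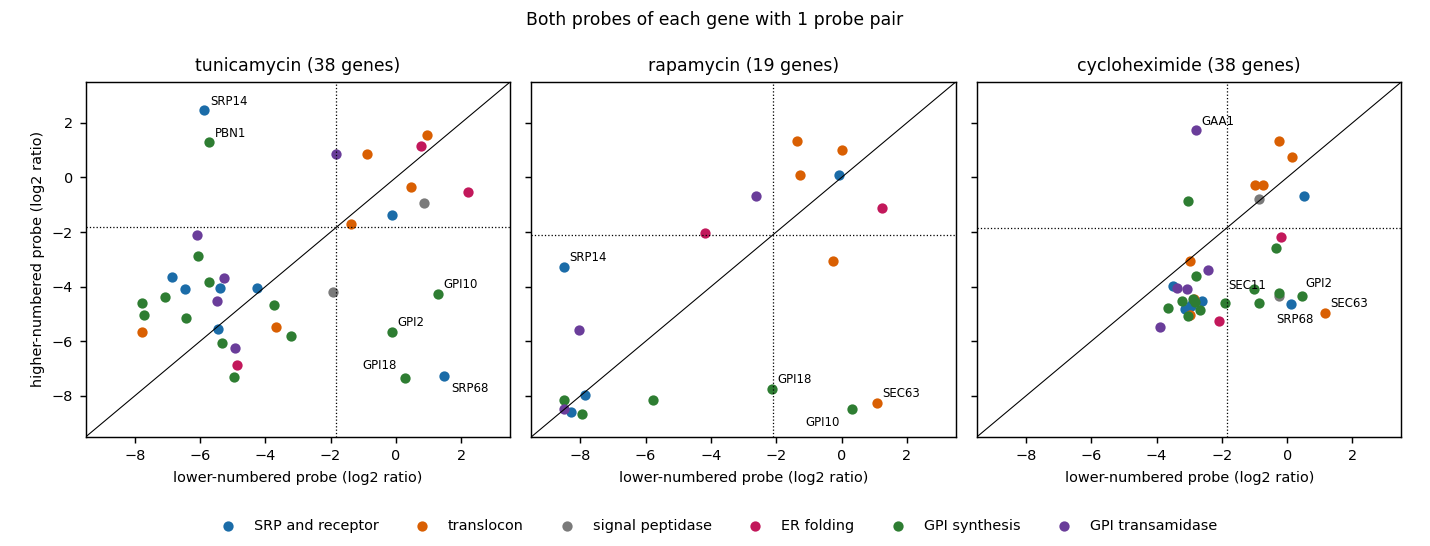
For members with 1 probe pair and both probes measured, the log2 ratio of the higher-numbered probe is plotted against that of the lower-numbered probe under tunicamycin, rapamycin and cycloheximide, coloured by role. The diagonal marks equal values and dotted lines mark 2 spread units below 0; SRP68, GPI2, GPI10, GPI18 and SEC63 lie to the lower right, SRP14, PBN1 and GAA1 to the upper left, and under cycloheximide most points lie below the diagonal.

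Between arrays the members were on the median lowest under rapamycin, as were the genes depleted on both arrays of a pair. The median difference of members was -0.92 for tunicamycin minus cycloheximide (43 genes), -1.91 for rapamycin minus cycloheximide (39) and 1.29 for tunicamycin minus rapamycin (39). Over all genes these medians were -0.16, -0.38 and 0.31. After quantile normalization the first was -0.12 and the second -1.07, and with higher-numbered probes alone the first was -0.26. Among genes depleted on both arrays of a pair, members had -1.53 (20 genes), -4.55 (5) and 2.64 (7), and all genes -1.63 (512), -3.26 (177) and 2.13 (142). The first and the second of these comparisons share the cycloheximide array, and the others likewise share an array. Under rapamycin 22 of 86 measured member spots had a deposited value below -9, against 406 of 19558 measured spots of the array. No spot of that array lay below -10, so the order among the lowest members there cannot be read.

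Genes that work beside these pathways were compared on the same arrays, where 13.6%, 6.45% and 15.2% of all genes were depleted under tunicamycin, rapamycin and cycloheximide. Of 10 genes that make sugar donors used by GPI synthesis or by N-glycosylation, 6 of 10 were depleted under tunicamycin (median -3.64), 3 of 3 under rapamycin (-7.49) and 8 of 10 under cycloheximide (-3.75). One of them, GFA1, which starts the synthesis of UDP-N-acetylglucosamine, was enriched under tunicamycin at 5.87 ± 0.86 (n = 2), while SPT14, whose enzyme consumes that sugar in GPI synthesis, was at -5.73 ± 1.91 (n = 2). Of the oligosaccharyltransferase, which attaches N-glycans beside the translocon, 3 of 8 genes were depleted under tunicamycin (median -1.62), 1 of 5 under rapamycin (-0.25) and 3 of 9 under cycloheximide (-0.44), WBP1, SWP1 and STT3 being those under tunicamycin and cycloheximide. Vesicle transport genes, which carry the imported proteins onward, had 19 of 31 depleted under tunicamycin, 6 of 16 under rapamycin and 17 of 34 under cycloheximide, with medians of -4.68, -4.86 and -3.25. Their difference from the 43 members was not tested.

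Other ER genes, mostly non-essential, had medians near 0. Of 11 other ER folding genes, such as LHS1 and SCJ1, 0 of 9 were depleted on each array, with medians of 0.20, 0.12 and -0.21 under tunicamycin, rapamycin and cycloheximide. CNE1, the calnexin gene, had -4.89 in its only measured rapamycin probe. Nothing is read from 0 of 9 beside the all-gene shares of 13.6%, 6.45% and 15.2%. Of 8 genes of other targeting routes, such as GET1 and SND2, 0 of 7, 0 of 3 and 0 of 5 were depleted, with medians of 0.34, 0.18 and 0.26. Of 8 further GPI genes 1 of 7, 0 of 6 and 1 of 6 were depleted, with medians of 0.07, -0.06 and 0.605. The depleted one was SMP3, an essential mannosyltransferase of the pathway, at -5.74 ± 1.02 under tunicamycin and -4.37 ± 1.38 under cycloheximide (n = 2 each). Likewise, nothing is read from the counts of the targeting and further GPI genes beside the same shares. Some genes of the folding and further GPI lists have more than 2 probes, and a call needs every measured one to be low. Among 53 genes for amino acid or adenine synthesis 0 of 33, 0 of 44 and 0 of 42 were depleted, with medians of 0.01, 0.03 and 0.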

How the data were processed

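Each of the 3 arrays held 22575 spots with 1 log2 ratio apiece, as the authors deposited them. The log base was taken from the values. No label or file header names the scanner, background correction or normalization. Spot signals were not analysed here, so no brightness filter was applied and depth is unknown. The number of arrays limits the precision. The deposited medians of -0.87, -1.32 and -0.74 for tunicamycin, rapamycin and cycloheximide show that values were not centred. Spots at 16.61, the log2 of 100000, were read as a code and left out together with empty spots. This left 19098, 19558 and 18680 spots. A platform annotation named 18794 probes with 1 gene each, and 3781 had no name. The RefSeq table (assembly R64) held 5321 of the 5325 genes and gave symbols and locus tags only. The symbols of both SRP receptor genes are replaced by locus tags.

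The array median was subtracted and probes were averaged per gene. Calls are rules of size, with no p-value, since each drug has 1 array. Members and lists were chosen with earlier results of these data known. The text names all members, up to 3 genes of a context list, and ALG7. Alternatives covered centring, the code, quantile normalization, probe summary, thresholds, the spread unit and spots of small whole-number ratios. The calling steps were tested on simulated data. Python 3.11.15, numpy 2.4.6, pandas 2.3.3 and matplotlib 3.10.9 were used.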

Additional observations from a re-analysis of the deposited data

Results flagged for a closer look

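In 3 members with at least 2 measured probes on both arrays compared, all of these probes lay below 0 on 1 array and above 0 on the other, which was not tested because each drug has 1 array. The rule was applied to the members only, so no share over all genes stands beside this count, and nothing is read from it. KAR2 had 0.95 under tunicamycin against -3.10 under rapamycin, a difference of 4.05, and against -1.20 under cycloheximide, a difference of 2.14. SBH2 had -1.54 under tunicamycin and 0.44 under cycloheximide, a difference of -1.98. SEC72 had 0.51 under rapamycin and -0.62 under cycloheximide, a difference of 1.13. SBH2 and SEC72 are non-essential genes, and no value of either was called.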

How the results depend on the processing

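No paired analysis was possible because each drug has 1 array, and for the same reason no array could be left out. Of 249 counts and medians recomputed under 12 alternative settings, 234 kept their sign and stayed within 1.5 times (counts) or within the median SD between probes of 1 gene (medians), and 0 members were enriched under every setting that gave a count. These counts of 0 enriched members are among the 234 and say nothing of how stable the other results are. Depleted members under cycloheximide numbered 10 at 4 units (3 per probe) and 0 without spots that are ratios of whole numbers up to 10. That filter gave the array a spread unit of 1.64, against 0.924 with all spots, and a median of -1.25, against -0.74. It also gave a translocon median of -2.50 under cycloheximide. Under rapamycin 21 members were depleted when 1 measured probe sufficed. The ER folding median under tunicamycin, 0.84, was -0.037 without centring and -0.68 with higher-numbered probes alone. Signal peptidase medians, which lie near 0, changed sign under rapamycin, to 0.51 with coded spots kept, 0.0448 after quantile normalization, 0.20 with the median of probes, 0.75 with higher-numbered probes alone and 0.0356 with probe blocks centred apart, and under tunicamycin to 0.43 with lower-numbered probes alone. Under cycloheximide, higher-numbered probes alone gave medians of -4.28 for all members and -4.50 for GPI synthesis, and lower-numbered probes alone gave -1.15 for ER folding. The median member difference of tunicamycin minus cycloheximide, -0.92, was -0.12 after quantile normalization and -0.26 with higher-numbered probes alone, and that of rapamycin minus cycloheximide, -1.91, was -1.07 after quantile normalization. Settings that use 1 probe block, centre the blocks apart or compare shared probes only were chosen after seeing the data. Where no cause is given, the cause was not tested.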

Other observations

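SPC1 had 1 probe at -5.43 under rapamycin while its other 11 measured probes there lay between -0.92 and 0.85. The coded value of 16.61 stood on 1 member spot under cycloheximide and 1 under rapamycin, both of SPC2, and on none under tunicamycin.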
